A study of Mus musculus with 12 samples.

Results

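The annexin genes and S100a6 were followed through a study of mouse embryonic stem cells that lack the ubiquitin ligase Arkadia. The set holds 10 genes of the 13508 named genes in the expression table: Anxa1, Anxa2, Anxa3, Anxa4, Anxa5, Anxa6, Anxa7, Anxa10, Anxa11 and S100a6. They were chosen by gene symbol, and each symbol had a single row. Anxa1 and Anxa3 were chosen because they stood higher in the lines without Arkadia, and S100a6 may have been, so these 3 genes are described between genotypes without a test. The other 7 annexins, called the relatives here, were tested.

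All cells were of the 129SvEv strain. The genotypes were wild type (WT, lines 18 and 26) and Arkadia -/- (null, lines 25 and 39), with 2 cell lines each and 4 in all. Arkadia is the product of Rnf111 and marks inhibitors of SMAD signalling for degradation. Every line spent 24 h in N2B27 medium on fibronectin and then 4 h with 10 µM SB431542, an inhibitor of the Activin and TGFβ type I receptor kinases. A dish of each line was harvested at that point (SB), and a dish each after 3 h and 6 h in 10 ng/ml Activin A, which gave 12 libraries in 6 groups of 2. Activin therefore came together with the loss of the inhibitor and a change of medium, and these cannot be told apart. The labels do not say how the lines were derived, and with 2 lines per genotype the effect of the genotype and that of the particular lines cannot be told apart beyond the agreement of both lines.

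Annexins are cytosolic proteins that bind acidic phospholipids of membranes when calcium rises, and they share a core of repeated domains behind a variable amino terminal tail. They take part in membrane repair, vesicle fusion, endocytosis and the link between membrane and cortical actin. S100 proteins are small EF-hand proteins that work as dimers, and most but not all of them are calcium sensors. Several dock onto the tail of a particular annexin: S100a10 binds Anxa2, S100a11 binds Anxa1 and Anxa2, and S100a6 (calcyclin) binds Anxa2 and Anxa11.

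Expression is given as FPKM, which divides fragments by transcript length and library size, so that levels can be compared between genes. The FPKM sums of the libraries were not level. They were 578104 and 584627 in WT and 604602 and 722232 in null lines under SB. At 6 h they were 677258 and 671164 in WT and 697333 and 805752 in null lines. Library medians lay between 4.09 and 4.29 FPKM. Other scalings were fitted as alternatives. Differences were taken after adding 1 to each FPKM and going to log2, so those of low genes are understated. Tests are limma fits across the 12823 genes that reached an FPKM of 1 in 2 or more libraries, and adjusted p means Benjamini-Hochberg adjustment over all of these. A gene is said to rise or fall where the adjusted p was under 0.05. Read totals are not known. The depth relative to the shallowest library (null line 39 at 6 h) was 1.22 to 1.81 in the other libraries, so low genes are less precise in the null Activin libraries. Rnf111 itself stood at 3.19 to 4.27 FPKM in the WT libraries and 0.539 to 0.855 in the null ones. All 10 stem cell markers looked for, among them Pou5f1 and Dppa5a, had a row, and their summed level was 1661 to 2345 FPKM in WT and 1653 to 2397 in null libraries.

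In WT cells under SB, S100a6 was the most abundant of the 10 genes, at 53.8 ± 6.02 FPKM (SD, n = 2 lines). Anxa7 followed at 48.0 ± 0.878, Anxa2 at 37.1 ± 1.68, Anxa6 at 32.0 ± 0.609, Anxa1 at 31.3 ± 0.818 and Anxa3 at 24.8 ± 0.471. Anxa11 (14.9 ± 0.0497), Anxa4 (11.7 ± 1.61) and Anxa5 (8.81 ± 0.145) formed a lower tier, and Anxa10 was near the limit of detection at 0.963 ± 0.330. Of the neighbours in this order only Anxa6 and Anxa1 had line values that overlapped. The closest of the others were S100a6, whose lower line had 49.5, and Anxa7, whose higher line had 48.6.

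**Figure D1:**
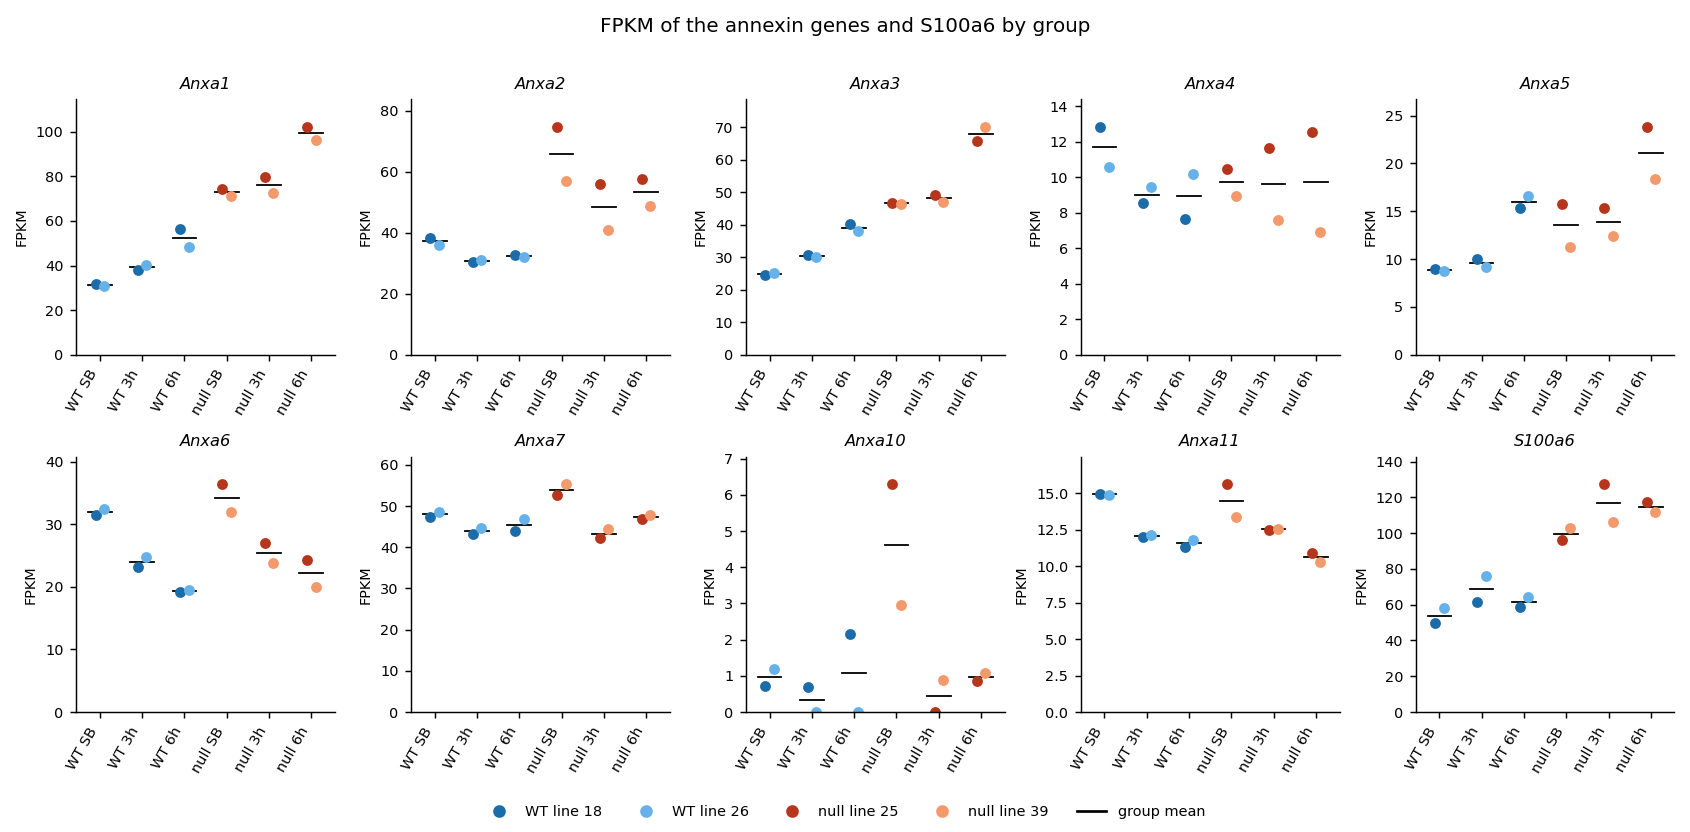
Each panel plots the FPKM of 1 gene (vertical axis, linear from 0) in the 12 libraries by group (horizontal axis), with a colour for each cell line and a short line at the mean of the pair. Anxa1, Anxa2, Anxa3 and S100a6 show every null point above every WT point, and Anxa6 and Anxa11 step down with Activin in both genotypes.

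Anxa1 (NM_010730, chromosome 19, 20373426 to 20390935, mm10, minus strand) encodes a mediator of the anti-inflammatory action of glucocorticoids that also acts outside the cell on formyl peptide receptors. It stood at 31.9 and 30.7 FPKM in WT lines 18 and 26 under SB, 38.0 and 40.3 at 3 h and 56.2 and 48.1 at 6 h. In null lines 25 and 39 it stood at 74.4 and 71.3 under SB, 79.6 and 72.8 at 3 h and 102 and 96.3 at 6 h. The lowest null library was above the highest WT library, whatever the treatment. The null minus WT difference was 1.19 under SB, 0.94 at 3 h and 0.92 at 6 h, folds of 2.29, 1.92 and 1.89, given as a description because Anxa1 was chosen on them.

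Anxa3 (NM_013470, chromosome 5, 96793350 to 96845969, plus strand), a less studied member known from neutrophils and endothelium, ran in parallel. It was at 24.5 and 25.2 FPKM in the WT lines under SB, 30.6 and 30.1 at 3 h and 40.1 and 37.9 at 6 h. The null lines had 46.6 and 46.4 under SB, 49.1 and 47.1 at 3 h and 65.8 and 70.1 at 6 h. Lines of a genotype lay close together, and the null values again began above the highest WT value. The described null minus WT differences were 0.88 under SB, 0.65 at 3 h and 0.78 at 6 h.

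S100a6 (NM_011313, chromosome 3, 90612820 to 90623734, plus strand) had 49.5 and 58.0 FPKM in the WT lines under SB, 61.5 and 75.8 at 3 h and 58.9 and 64.6 at 6 h. It had 96.2 and 103 in the null lines under SB, 127 and 106 at 3 h and 117 and 112 at 6 h. As for Anxa1 and Anxa3, every null library was above every WT library, a state that held for 0.959% of all tested genes. The described differences were 0.88, 0.76 and 0.88.

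The question put to the relatives was which of them also stood higher in the null lines. None of the 7 passed the threshold in limma under SB, where 0.312% of all tested genes did (1910 genes at an unadjusted p under 0.05). None passed at 3 h (0.382%; 1655 genes at an unadjusted p under 0.05) or at 6 h (0.211%; 1881 genes). On the means of the 4 lines, the contrast whose unit is the cell line, no gene of the table passed (0%; 1710 at an unadjusted p under 0.05). Of the relatives, Anxa2, Anxa5, Anxa7 and Anxa10 had an unadjusted limma p under 0.05 under SB (0.000911, 0.0096, 0.0205 and 0.0265). Anxa10 rested on few reads there. At 3 h these were Anxa2 and Anxa5 (0.00417 and 0.0175), and at 6 h Anxa2 (0.00203). On line means they were Anxa2 and Anxa5 (0.00211 and 0.0128). The median difference of the 7 relatives was 0.16 under SB, 0.07 at 3 h and 0.15 at 6 h, against medians over all genes of 0.00, 0.00 and -0.01.

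Among the relatives, Anxa2 alone had every null library above every WT library. It encodes the partner of S100a10 in a membrane-bound heterotetramer that binds plasminogen and cortical actin (NM_007585, chromosome 9, 69453636 to 69491797, plus strand). The WT lines had 38.3 and 36.0 FPKM under SB, 30.3 and 31.1 at 3 h and 32.5 and 32.0 at 6 h. The null lines had 74.7 and 56.8 under SB, 56.0 and 40.7 at 3 h and 57.7 and 48.9 at 6 h. Such a separation of all libraries held for 0.959% of all tested genes. Null line 25 was above null line 39 in each treatment.

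The difference of Anxa2 was 0.79 under SB (95% confidence interval 0.43 to 1.16, unadjusted p = 0.000911, limma adjusted p = 0.10). It was 0.62 at 3 h (0.25 to 0.99, adjusted p = 0.18), 0.70 at 6 h (0.33 to 1.07, adjusted p = 0.15) and 0.71 on line means (0.39 to 1.02, adjusted p = 0.21). The size of the difference moved most with the null lines. Without null line 25 the difference under SB was 0.60, and without null line 39 it was 0.99. At 6 h these were 0.58 and 0.82. With each line left out in turn it ran from 0.40 to 0.85 at 3 h. Leaving out a line leaves a single library a group in its genotype, so a call there does not measure the spread between the lines of that genotype. Without line 25 the whole table had 2047 called genes under SB and 1508 at 6 h, against 40 and 27 with all lines, and without line 39 it had 10 and 8.

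Anxa5 (NM_009673, chromosome 3, 36448862 to 36475838, minus strand), the phosphatidylserine binder used as a probe of dying cells, had a smaller difference. The WT lines had 8.91 and 8.70 FPKM under SB, 10.0 and 9.14 at 3 h and 15.3 and 16.6 at 6 h. In the null lines it had 15.8 and 11.3, 15.3 and 12.4, and 23.8 and 18.4. Both null lines were above both WT lines in each treatment, a state shared under SB by 24.5% of all genes, at 3 h by 22.6% and at 6 h by 23.7%. The difference was 0.55 under SB (interval 0.17 to 0.93, adjusted p = 0.23), 0.49 at 3 h (0.11 to 0.86, 0.29) and 0.37 at 6 h (-0.003 to 0.75, 0.34).

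The remaining relatives lay nearer to 0. Anxa6 differed by 0.09 under SB, 0.07 at 3 h and 0.18 at 6 h, where the interval was -0.05 to 0.42. Anxa7 differed by 0.16 (0.03 to 0.30), -0.02 (-0.15 to 0.11) and 0.06 (-0.07 to 0.20), and Anxa11 by -0.05, 0.05 and -0.11, with bounds between -0.28 and 0.22. No comparison with the differences of Anxa1 and Anxa3 is drawn, because those genes were chosen for standing higher in the null lines. Anxa4 differed by -0.24, 0.06 and 0.07, but its interval under SB ran from -0.84 to 0.36.

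Anxa10, an annexin that has lost most calcium-binding sites, was covered only in part. Its locus (NM_001136089, chromosome 8, 62064232 to 62076292, minus strand) took in 18.2% of the annotated gene, whereas those of the other members took in at least 96.0%. It had 0.730 and 1.20 FPKM in the WT lines under SB, 0.690 and 0 at 3 h and 2.15 and 0 at 6 h. The null lines had 6.29 and 2.95, 0 and 0.886, and 0.857 and 1.08. The steps between these values correspond to about 1, 2, 1, 0, 3 and 0 reads in WT and 10, 4, 0, 1, 1 and 1 in null libraries, so no difference is read from this gene.

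**Figure D2:**
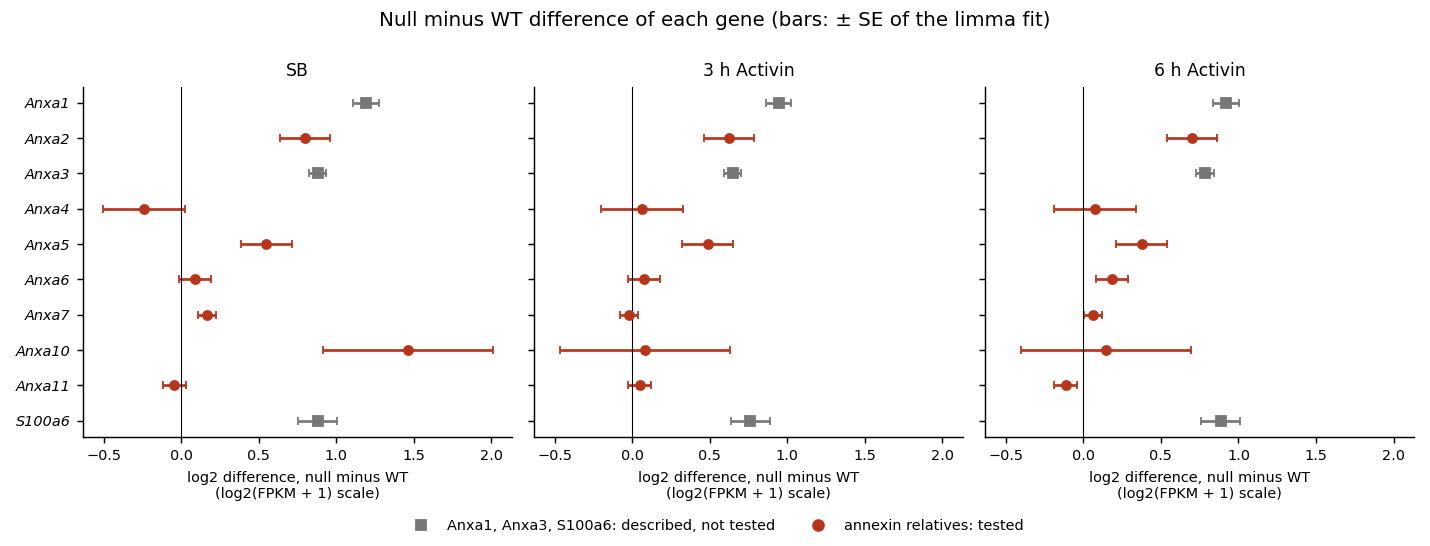
The horizontal axes give the null minus WT difference on the log2(FPKM + 1) scale under SB, at 3 h and at 6 h, with 1 row per gene and bars of ± 1 standard error from the limma fit. Grey squares are the 3 genes described without a test, and red circles are the tested relatives, of which only Anxa2 and Anxa5 have bars that clear 0 to the right in all 3 panels.

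Anxa2 shares chromosome 9 with Rnf111, the disrupted gene, and ends 933632 bp before it. The 7 tested genes between them were looked at after the values of Anxa2 had been seen. None passed the threshold in limma in any treatment, where 0.211% to 0.382% of all genes did. At an unadjusted p under 0.05 were 3 of the 7 under SB, 0 at 3 h and 2 at 6 h. Over all 12823 genes these counts were 1910, 1655 and 1881. Differences of the 7 ran from -0.68 to 0.41 under SB. Anxa1 had no tested gene within 500000 bp. Each other member had 1 to 19, and none of them passed between genotypes in any treatment.

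RefSeq promoter windows (250 bases before to 50 after the annotated start, GRCm38.p6) were found for 8 of the 10 members, the exceptions being Anxa3 and Anxa6. The windows of 4 genes are shown 5′ to 3′ up to the last base before the annotated exon: Anxa2 and S100a6, whose null libraries all lay above the WT ones, S100a11, the S100 gene called between genotypes in each treatment, and Anxa5, with the largest rise of the 10 genes at 6 h. Capitals mark matches to the AP-1 motif TGANTCA.
Anxa2 (chr9:69453433-69453619, plus strand): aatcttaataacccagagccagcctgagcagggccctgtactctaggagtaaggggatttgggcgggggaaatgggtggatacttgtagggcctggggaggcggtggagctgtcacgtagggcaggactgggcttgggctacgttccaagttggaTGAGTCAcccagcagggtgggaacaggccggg
S100a11 (chr3:93520246-93520487, plus strand): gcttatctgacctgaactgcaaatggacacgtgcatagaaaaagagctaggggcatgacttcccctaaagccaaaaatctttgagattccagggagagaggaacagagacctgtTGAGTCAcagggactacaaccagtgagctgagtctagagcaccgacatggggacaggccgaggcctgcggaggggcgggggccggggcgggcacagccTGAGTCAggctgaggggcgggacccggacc
S100a6 (chr3:90612644-90612881, plus strand): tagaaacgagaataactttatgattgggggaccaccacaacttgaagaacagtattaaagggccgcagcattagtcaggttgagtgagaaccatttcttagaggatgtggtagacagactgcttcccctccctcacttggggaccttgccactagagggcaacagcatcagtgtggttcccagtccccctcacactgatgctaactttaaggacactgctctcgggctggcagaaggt
Anxa5 (chr3:36475895-36476137, minus strand): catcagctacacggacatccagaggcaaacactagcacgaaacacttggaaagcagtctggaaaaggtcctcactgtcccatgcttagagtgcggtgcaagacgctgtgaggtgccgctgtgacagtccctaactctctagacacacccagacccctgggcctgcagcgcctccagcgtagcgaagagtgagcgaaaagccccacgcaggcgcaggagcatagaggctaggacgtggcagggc

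The windows were searched on both strands for 3 motifs: the AP-1 motif, whose letters read the same on the other strand, the SMAD motif CAGACA and the TEAD motif, which has the letters GGAATG. No match overlapped another. Of 32851 promoter windows of the same length, 7.81%, 21.04% and 14.7% held them in this order. The AP-1 motif occurred once in the window of Anxa2, at position -95 from the start, and in 2 places in those of S100a11 (-136 and -38) and Anxa10 (-180 and -16). The window of Anxa1, which lies wholly in an annotated exon and is not shown, held the TEAD motif at -236, and 1 of 2 windows of Anxa4 the SMAD motif at 25. The windows of Anxa5, Anxa7, Anxa11 and S100a6 held none of the 3. These are letter matches in a short window and not measured sites.

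With Activin the 10 genes moved in both directions. In WT lines 4 were called at 3 h, where 22.5% of all genes were, and 5 at 6 h (15.9%). In null lines 3 were called at 3 h (13.6%) and 5 at 6 h (13.4%). Between 3 and 6 h, 2 were called in WT (2.53% of all genes) and 2 in null lines (4.63%). With the cell line as a block, which the shared lines allow, the counts in WT became 7 at 3 h (37.2% of all genes) and 4 from 3 to 6 h (6.64%), and 4 from 3 to 6 h in null lines (13.4%). The share of all genes called thus rose with the members. Where WT line 18 or 26 was left out, which leaves a single WT library a group, no member was called in the WT comparisons with SB, and the whole table had 143 and 137 called genes at 3 h and 117 and 89 at 6 h. In null lines Anxa3 at 6 h was then the single member called, with 384 and 386 genes called in all.

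Anxa1, Anxa3 and Anxa5 rose. Anxa1 was up by 0.31 in WT at 3 h (SE 0.0836, limma adjusted p = 0.0319) and 0.71 at 6 h (adjusted p = 0.000994). In null lines Anxa1 was up by 0.44 at 6 h (adjusted p = 0.0126), and its 3 h value was 0.06 (interval -0.13 to 0.25). The 3 h call in WT was lost after quantile normalization (0.26, adjusted p = 0.126) or upper quartile scaling (0.27, 0.0567), and the 6 h call in null lines after quantile normalization (0.32, 0.0887) and without null line 25 (0.43, 0.0739) or 39 (0.45, 0.0574).

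Anxa3 was up by 0.28 in WT at 3 h (SE 0.0564, limma adjusted p = 0.0121) and 0.63 at 6 h (0.000228). In null lines its 3 h value was 0.05 (interval -0.08 to 0.17), and it was up by 0.54 at 6 h (0.00067). Both genes also rose from 3 to 6 h, Anxa1 by 0.40 in WT (adjusted p = 0.0455) and 0.38 in null lines (0.0416), and Anxa3 by 0.35 (0.0191) and 0.49 (0.00513). The calls of Anxa1 from 3 to 6 h were lost after quantile normalization (adjusted p = 0.101 in WT and 0.157 in null lines), upper quartile scaling (0.0747 and 0.103), without a variance trend (0.0620 and 0.0574) and without any 1 of the 4 lines. The null call of Anxa3 was also lost without line 25 (0.0781) or 39 (0.0794). Thus the null libraries under SB already had more Anxa1 and Anxa3 than the WT libraries after 6 h of Activin.

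Anxa5 was near its SB level at 3 h, with 0.11 in WT and 0.04 in null lines, and rose by 6 h. The change was 0.79 in WT (fold 1.73, limma adjusted p = 0.0173) and 0.61 in null lines (fold 1.53, adjusted p = 0.0450), with line values of 0.72 and 0.86 in WT and 0.57 and 0.66 in null. The null call was lost after quantile normalization (0.58, adjusted p = 0.0509) and upper quartile scaling (0.58, 0.0602). From 3 to 6 h its values were 0.68 in WT and 0.57 in null lines. Both were called with the cell line as a block (adjusted p = 0.00697 and 0.00794), and the WT value also without null line 25 (0.0244) or 39 (0.0234). Otherwise neither was called.

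Anxa6 and Anxa11 fell. Anxa6 (NM_001110211, chromosome 11, 54978891 to 55033462, minus strand), a large annexin of endosomes and the plasma membrane, had 31.6 and 32.4 FPKM in WT under SB, 23.2 and 24.8 at 3 h and 19.2 and 19.4 at 6 h. In null lines it had 36.4 and 31.9, 26.9 and 23.7, and 24.3 and 20.0, so each line stepped down at both times. The change was -0.40 in WT at 3 h (limma adjusted p = 0.0288) and -0.70 at 6 h (0.00335), and -0.42 (0.0325) and -0.61 (0.00784) in null lines. The 3 h call in null lines was lost after quantile normalization (-0.40, adjusted p = 0.0544) and upper quartile scaling (-0.38, 0.0647). From 3 to 6 h the values of -0.30 in WT and -0.19 in null lines were called with the block (0.0179 and 0.0382), and the WT value also without null line 25 (0.0469) or 39 (0.0465).

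Anxa11 (NM_013469, chromosome 14, 25842135 to 25886806, plus strand), which binds S100a6 and tethers RNA granules to lysosomes, had 14.97 and 14.90 FPKM in WT under SB, 12.03 and 12.1 at 3 h and 11.3 and 11.8 at 6 h. Null values were 15.6 and 13.3, 12.5 and 12.6, and 10.9 and 10.3. In WT it fell by 0.29 at 3 h (adjusted p = 0.0298) and by 0.34 at 6 h (0.0192), and in null lines it fell by 0.41 at 6 h (0.0103). At 3 h the null value was -0.19 (adjusted p = 0.119), and without line 39 it was -0.30 (0.0408). The values of its partner S100a6 were positive, at 0.34 in WT at 3 h (adjusted p = 0.0798, 0.0193 with the block), 0.20 at 6 h, and 0.22 and 0.20 in null lines, none called without the block.

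Anxa2, Anxa4 and Anxa7 were mostly uncalled. Anxa2 was lower than under SB in each of the 4 lines at both times, by -0.27 and -0.20 in WT and -0.44 and -0.29 in null lines at 3 and 6 h. These changes were uncalled in the fit of all groups (adjusted p from 0.102 to 0.412). All 4 were called with the block (adjusted p of 0.0147 and 0.0451 in WT and 0.00471 and 0.0137 in null lines). The block also called 37.2% and 33.9% of all genes in these WT comparisons and 29.5% and 31.4% in the null ones. The WT change at 3 h was also called with its 2 groups compared alone (0.0277), and both WT changes without null line 25 (0.0113 and 0.0304) or 39 (0.0109 and 0.0296). In null lines the 3 h change was called without line 25 (0.0336) or 39 (0.0180) and the 6 h change without line 39 (0.0255). Within each line Anxa2 was thus lower at 6 h of Activin than under SB while Anxa1 and Anxa3 were higher, although all 3 stood higher in null lines.

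Anxa7 (synexin; NM_001110794, chromosome 14, 20455274 to 20480099, minus strand), which promotes membrane fusion, was at 47.4 and 48.6 FPKM in WT under SB, 43.2 and 44.7 at 3 h and 43.8 and 46.9 at 6 h. Null lines had 52.6 and 55.3, 42.2 and 44.4, and 46.9 and 47.9. It fell in null lines at 3 h (-0.31, limma adjusted p = 0.0126). Without null line 25 that value was -0.31 with an adjusted p of 0.0707. The other changes from SB were uncalled, at -0.13 (adjusted p = 0.146) and -0.08 (0.345) in WT at 3 and 6 h and -0.18 (0.0701) in null lines at 6 h. After quantile normalization all 3 were called, at -0.24 (0.0183), -0.20 (0.0410) and -0.27 (0.0165). The null 6 h value was also called with upper quartile scaling (-0.22, 0.0381). The block called the null 6 h value (0.0110, with 31.4% of all genes called) and the WT 3 h value (0.0322, with 37.2%).

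Anxa4 (NM_013471, chromosome 6, 86736802 to 86793576, minus strand), an annexin of epithelial cells, followed no common course. WT lines had 12.8 and 10.6 FPKM under SB, 8.52 and 9.46 at 3 h and 7.66 and 10.2 at 6 h, and null lines 10.5 and 8.96, 11.6 and 7.57, and 12.5 and 6.91. Null line 25 was highest at 6 h and null line 39 lowest. Anxa10, also called in null lines at 3 h (-1.97, adjusted p = 0.0472), rested on the 10 and 4 reads under SB, and without null line 25 it was -1.07 (adjusted p = 0.464).

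**Figure D3:**
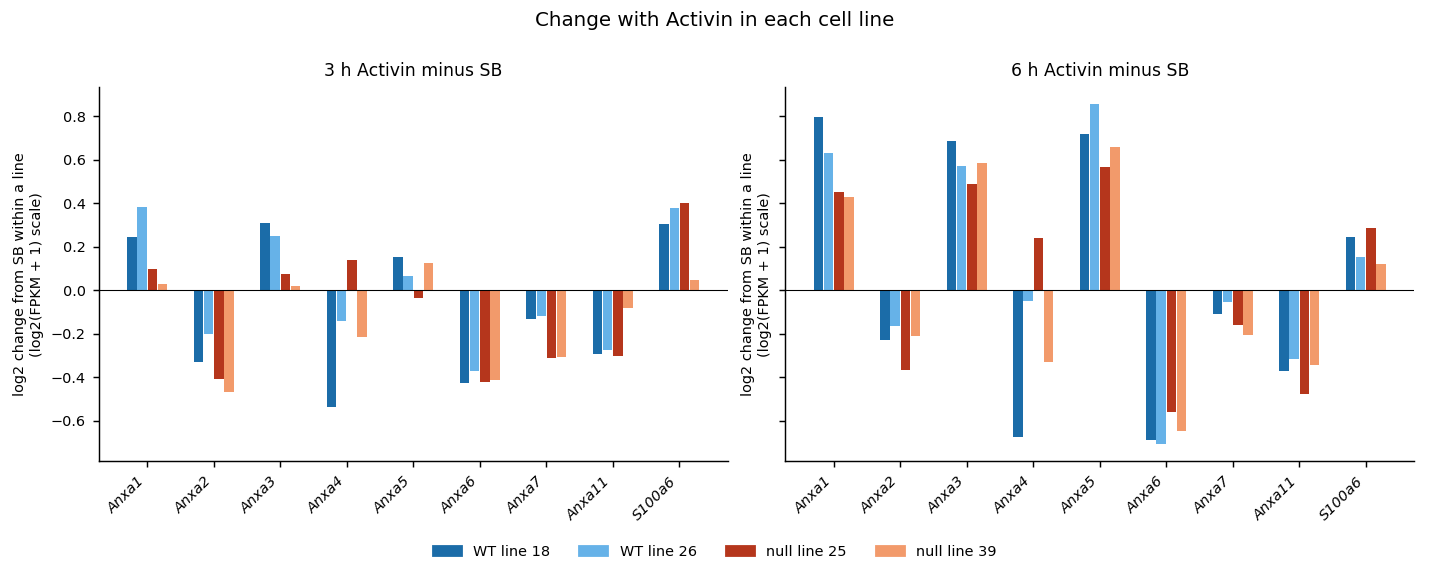
Bars give the change from SB within each cell line on the log2(FPKM + 1) scale (vertical axis, from a zero line) at 3 h and at 6 h for 9 genes, coloured by line, with Anxa10 left out for its low counts. At 6 h Anxa1, Anxa3 and Anxa5 are up and Anxa6 and Anxa11 down in all 4 lines.

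Whether the response itself differed between genotypes was tested as the null minus WT difference of the responses. None of the 7 relatives and no other gene (0%) passed in limma at 3 h or at 6 h, where 654 and 382 genes were at an unadjusted p under 0.05. For Anxa5 at 6 h the value was -0.17 (interval -0.71 to 0.36) and for Anxa6 0.09 (-0.24 to 0.43). Anxa1 and Anxa3 were chosen on the same null and WT libraries, so their values are a description: -0.25 at 3 h and -0.27 at 6 h for Anxa1, and -0.23 and -0.09 for Anxa3.

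The summed level of the 9 annexins gave the make-up of the pool. It was 210 ± 2.01 FPKM in WT under SB, 199 ± 3.73 at 3 h and 226 ± 3.83 at 6 h (SD, n = 2 lines). In null lines it was 316 ± 24.4, 278 ± 22.0 and 332 ± 17.9. Anxa1, Anxa2 and Anxa3 together made up 44.5% ± 0.538 of the WT sum under SB and 58.7% ± 0.191 of the null sum, and 54.7% ± 2.44 and 66.4% ± 1.35 at 6 h. Anxa7 had the largest share of any annexin in WT under SB (22.9% ± 0.638). In null lines under SB Anxa1 had the largest mean share (23.1% ± 1.10). In null line 25, however, Anxa2 (22.43%) stood just above Anxa1 (22.36%). These sums hold Anxa1 and Anxa3, which were chosen for the genotype difference, so they are a description.

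**Figure D4:**
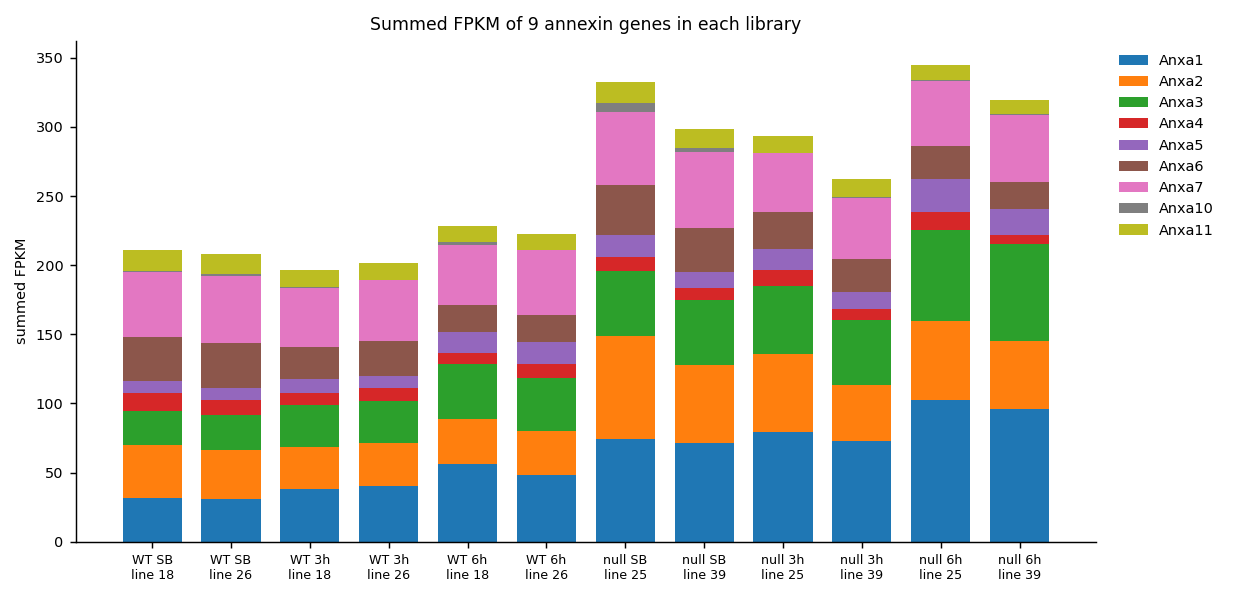
Stacked bars show the summed FPKM of the 9 annexins (vertical axis from 0) in each of the 12 libraries, with 1 colour per gene. The null bars reach 262 to 345 FPKM and the WT bars 196 to 228, and the lower 3 segments (Anxa1, Anxa2, Anxa3) are the tallest part of the difference.

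Of 12 annexin symbols looked for, 10 had a row. The tenth was Anxa8, at 0.608 to 1.98 FPKM. It fell in null lines at 6 h (-0.59, adjusted p = 0.0470) and was not called between genotypes. Anxa9 and Anxa13 are not analysed here.

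Of 17 S100 symbols, 6 had a row of their own and all 6 were tested, S100a6 included. Among the other 5, S100a11 was called higher in null lines in each treatment, where 0.312%, 0.382% and 0.211% of all genes were called. It had 40.5 and 41.3 FPKM in the WT lines under SB, 47.9 and 48.0 at 3 h and 44.1 and 47.2 at 6 h, and 63.1 and 62.9, 66.4 and 70.7, and 64.7 and 73.4 in the null lines. Every null library was above every WT library, as for 0.959% of all tested genes. The difference was 0.61 under SB (limma adjusted p = 0.0102), 0.51 at 3 h (0.0269) and 0.58 at 6 h (0.0208), and 0.57 on line means (0.117). Without WT line 18 no gene of the table was called between genotypes in any treatment, so this call and those of other list genes were then lost.

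S100a10, the partner of Anxa2, was the most abundant of them. It had 128 and 133 FPKM in the WT lines under SB, 265 and 272 at 3 h and 282 and 256 at 6 h, and 202 and 243, 407 and 383, and 368 and 425 in the null lines. Its null minus WT difference was 0.76 under SB (adjusted p = 0.0307), 0.56 at 3 h (0.0905) and 0.55 at 6 h (0.0965). It rose with Activin by 1.04 at both times in WT (adjusted p = 0.00044 and 0.000469) and by 0.83 in null lines (0.00231 and 0.00187). Anxa2 had negative values in the same 4 comparisons, as given above.

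S100a1 (2.96 to 5.01 FPKM over all libraries) and S100a16 (1.92 to 4.35) were low and were not called between genotypes. S100a13 had 2 rows at its locus. The row kept by its higher mean ran from 2.40 to 8.74 FPKM with lines far apart and no call, whereas the other ran from 2.77 to 3.98 in WT and from 4.32 to 6.80 in null libraries. S100a3 and S100a4 shared a joined row at 1.39 to 4.19 FPKM, whose reads cannot be assigned to either.

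**Figure D5:**
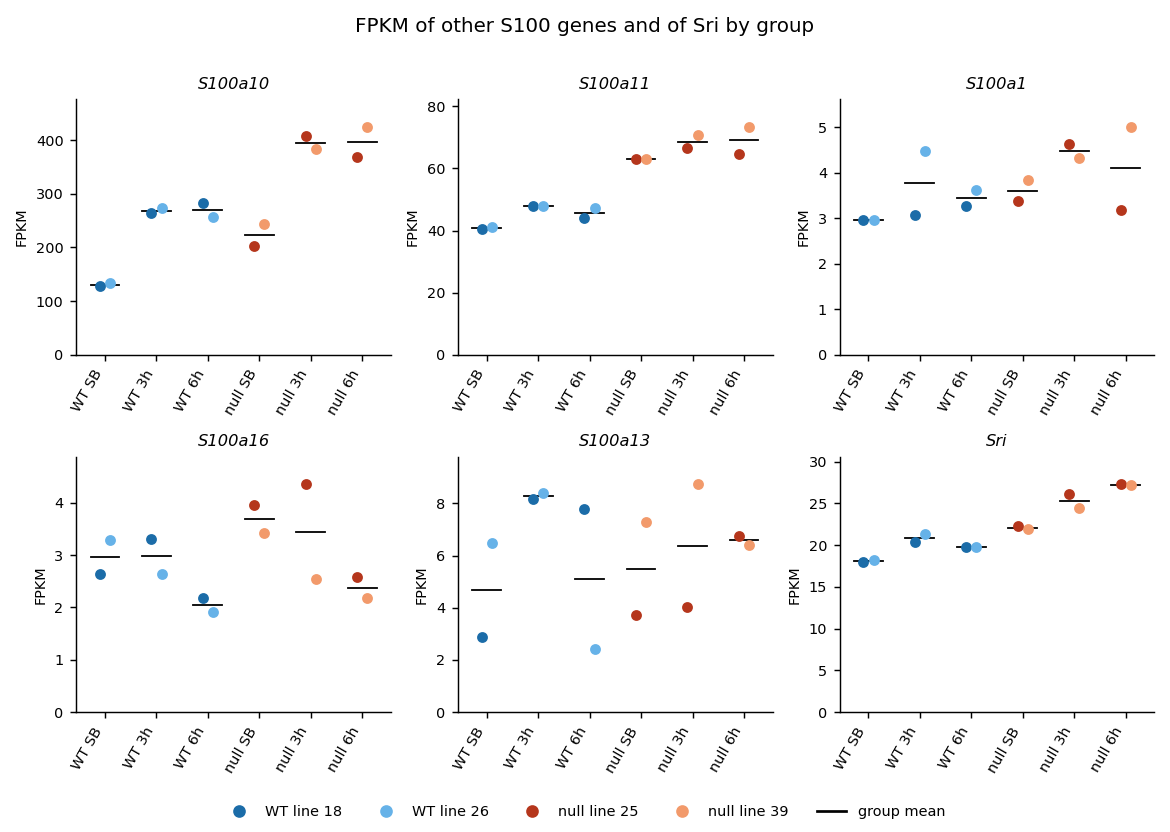
Each panel plots the FPKM of another S100 gene, or of sorcin (Sri), in the 12 libraries by group (vertical axes linear from 0), with a colour for each cell line and a short line at the group mean. S100a10 and S100a11 are higher in null than in WT lines in each treatment, and the kept row of S100a13 has lines far apart within groups.

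Other partners of annexins and genes of membrane repair were taken from a list of 24, of which 17 were tested. Between genotypes none was called under SB or at 3 h in limma, and 1 was called at 6 h (6, 4 and 7 at an unadjusted p under 0.05). Of all 12823 genes 0.312%, 0.382% and 0.211% were called, and 1910, 1655 and 1881 were at an unadjusted p under 0.05. The list gene called at 6 h was Sri, named after its value was seen, a calcium sensor that binds Anxa7 and Anxa11. It had 19.8 and 19.8 FPKM in the WT lines at 6 h and 27.3 and 27.2 in the null lines, a difference of 0.44 (adjusted p = 0.0222), against 0.27 (0.102) under SB and 0.26 (0.118) at 3 h. The most abundant of the list, Pdcd6 (a further partner of Anxa7 and Anxa11), Chmp3 (an ESCRT subunit) and Capns1 (the small calpain subunit), were not called between genotypes. With Activin, 3 rose and 2 fell in WT at 3 h, and 2 rose and 1 fell at 6 h. In null lines 1 rose and 2 fell at 3 h, and 3 rose and 2 fell at 6 h. Of all genes 22.5% and 15.9% were called in these WT comparisons and 13.6% and 13.4% in the null ones. Pdcd6 rose in WT by 0.53 at 3 h (adjusted p = 0.0249) and 0.49 at 6 h (0.0388).

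Copines, another family of calcium-dependent phospholipid binders, gave 4 tested genes of 9. None was called between genotypes in limma, where 0.211% to 0.382% of all genes were, and none was at an unadjusted p under 0.05. Cpne3, their most abundant member, rose from 3 to 6 h by 0.37 in WT (adjusted p = 0.0412) and 0.42 in null lines (0.0219). Of all genes 2.53% and 4.63% were called in these comparisons. The rise came after a lower level at 3 h. Mean FPKM was 6.25 under SB, 5.12 at 3 h and 6.90 at 6 h in WT, and 6.19, 5.38 and 7.54 in null lines.

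Annexins and S100 proteins are abundant in several differentiated cell types, so markers of these were read in the same libraries. Between genotypes 0.312% of all genes were called in limma under SB, 0.382% at 3 h and 0.211% at 6 h. At an unadjusted p under 0.05 stood 1910, 1655 and 1881 of the 12823 genes. Of 12 measured fibroblast markers, 1 was called in null against WT under SB, 0 at 3 h and 1 at 6 h. Under SB 10 of 12 were positive (median 0.37), and in each treatment 4 were at an unadjusted p under 0.05. The called gene was Tagln, an actin-binding protein, both times (0.93, limma adjusted p = 0.00536, and 0.67, 0.0285). Under SB Dcn (mean 2.02 FPKM in WT and 1.39 in null lines) and Thy1 (5.76 and 4.82) ran the other way. The fibroblast markers summed to 355 to 602 FPKM in WT and 597 to 905 in null libraries, with Tagln the largest part. Acta2 was at 54.2 to 74.1 in WT and 77.7 to 130 in null libraries, and Lum and Postn had no row. Trophoblast markers summed to 87.4 to 106 FPKM in WT and 116 to 170 in null libraries, and Elf5, Plac1 and Prl3d1 had no row. None of the 9 was called in any treatment (2, 3 and 2 at an unadjusted p under 0.05). Of the 9, 7 were positive in null against WT under SB, 8 at 3 h and 6 at 6 h. The largest part was Krt18, at 47.8 to 60.8 FPKM in WT and 75.7 to 111 in null libraries. Endoderm markers summed to 121 to 140 and 128 to 171 FPKM, with 0 of 8 called (2, 3 and 0 at an unadjusted p under 0.05) and Gata6, Sox7, Pdgfra, Ttr, Apoa1 and Srgn without a row. Of 10 stem cell markers 4 were positive in null against WT under SB, 4 at 3 h and 3 at 6 h (5, 5 and 4 at an unadjusted p under 0.05). Zfp42 was called higher in null lines under SB (0.52, adjusted p = 0.0230) and at 3 h (0.44, 0.0423). Fgf4, named after its values were seen, ran the other way, at 9.89 to 10.8 FPKM in WT and 6.63 to 8.88 in null libraries without overlap, but was not called (-0.47 under SB, adjusted p = 0.0819). Under SB Dnmt3b had -0.33 (0.107) and Utf1 -0.30 (0.243). The part of other cell types in the annexin values was not tested, and more RNA per cell and more cells of a type cannot be told apart in these bulk libraries.

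The genes with the pattern most like that of Anxa1 over the 12 libraries were Anxa3 among the members (Pearson r of log2(FPKM + 1) 0.984) and, outside them, B3galnt1 (0.985), Wls (0.967), Tusc3 (0.956), Ifi202b (0.954) and Nts (0.953). Those most like Anxa3 were B3galnt1 (0.984), Wls (0.977), Tusc3 (0.975), Cdc16 (0.969) and Tpm1 (0.968). S100a6 was most like Lgals1 (0.965), Vamp8 (0.959), Cyba (0.958), S100a11 (0.957) and Ifi202b (0.952). Among the members, Anxa1 and S100a6 had 0.902, Anxa1 and Anxa5 0.834, Anxa1 and Anxa2 0.727, Anxa3 and Anxa5 0.867, Anxa3 and Anxa2 0.646, Anxa6 and Anxa11 0.888, and Anxa3 and Anxa11 -0.57. The 12 libraries come from 4 lines and 3 treatments, so these values describe shared differences between groups and are not tested.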

How the data were processed

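Poly(A) RNA was sequenced as 50 bp single reads by a company, per the labels' protocols. The deposited values are FPKM per locus, per the file headers. Reads were placed on mm10, per the submitters' processing notes. Aligner, quantifier and strand setting: not given in the sources used here. There were 17446 loci, 2666 of them unnamed and 27 with a status other than OK. The row with the highest mean was kept for each name, which left 13508 genes, and loci were matched to GENCODE M21. After log2(FPKM + 1), limma 3.58.1 (R 4.3.3) fitted 6 group means with a variance trend and 6 residual degrees of freedom to genes reaching FPKM 1 in 2 or more libraries. Tests were two-sided at an adjusted p of 0.05. The fit was tested on simulated data with independent noise and no effect of the cell line. That test cannot show how the fit behaves where lines are repeated. P-values of this fit rest on 1 spread per gene, pooled over the 6 groups and drawn toward the trend over all genes. They do not measure the spread of only the groups compared. For Anxa2 the SD was 0.390 to 1.68 FPKM in WT groups and 6.23 to 12.6 in null groups. The fit also counts the repeated libraries of a line as independent. An exact permutation of 2 against 2 lines cannot give a p below 0.333. The same lines stand in SB, 3 h and 6 h, which pairs these groups. Deviations of same-line libraries from their group means correlated at 0.0165 to 0.0537 in WT and 0.246 to 0.349 in null lines. The cell line as a block was fitted as an alternative, beside another pseudocount, other filters, other scalings and each line left out. The members and the gene lists were chosen with earlier results of these data known. All 10 members are named, and from the other lists the 3 genes of highest mean FPKM and those called between genotypes in at least 2 of 3 treatments, with few genes added where stated. Relative depth came from the smallest steps between low FPKM values.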

Additional observations from a re-analysis of the deposited data

How the results depend on the processing

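Each count of called genes was recomputed under 8 alternatives (6 for line means) and without each cell line. With the cell line as a block, 7 members were called in WT at 3 h, 4 in WT from 3 to 6 h and 4 in null lines from 3 to 6 h (4, 2 and 2 without the block), while the genes called over the whole table went from 2882 to 4772, from 325 to 852 and from 594 to 1724. The block added Anxa2, Anxa7 and S100a6 at 3 h in WT and Anxa5 and Anxa6 from 3 to 6 h in both genotypes, beside the calls of Anxa2 and Anxa7 given above, and ended no call. From 3 to 6 h in WT the count was 1 with a pseudocount of 0.1, and 1 in both genotypes with quantile normalization, with upper quartile scaling and with no variance trend. With the groups compared alone, which leaves few residual degrees of freedom, it was 0 from 3 to 6 h in both genotypes and 0 in null lines at 3 h and at 6 h.

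Leaving out each line in turn gave 0 to 5 members in WT at 3 h, 0 to 6 at 6 h and 0 to 3 from 3 to 6 h, and 0 to 4, 1 to 5 and 0 in the same null comparisons. The low ends came without WT line 18 or 26, in null comparisons too, and from 3 to 6 h in null lines without any of the 4 lines. In WT at 3 h 2882 genes of all were called with all lines, 143 and 137 without WT line 18 or 26, and 4354 without either null line. The lone library of a group is then assumed to vary like the other groups. Relatives called between genotypes numbered 0 to 1 under SB, 0 to 1 at 3 h, 0 to 1 at 6 h and 0 to 2 on line means. On line means Anxa2 was called without lines 18, 26 or 25, where 128, 178 and 1193 genes of the whole table were, against 0 with all lines. The second relative without line 18 was Anxa10, from which no difference is read.

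Scaling also moved the split of all called genes into higher and lower. With quantile normalization it went from 1622 and 1260 to 1372 and 1699 in WT at 3 h, from 1230 and 809 to 1160 and 1328 in WT at 6 h, and from 32 and 8 to 25 and 11 in null against WT under SB. With upper quartile scaling it was 1044 and 1186 in WT at 6 h, and went from 834 and 915 to 1079 and 669 in null lines at 3 h, from 356 and 238 to 187 and 308 from 3 to 6 h there, and from 17 and 32 to 22 and 23 between genotypes at 3 h.

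Over all 10 members and all comparisons, 34 of 1408 values changed sign, and 0 of these were called under either setting. Among the values printed above, Anxa7 between genotypes was 0.019 at 3 h with upper quartile scaling and -0.0085 at 6 h with quantile normalization. Without single lines, Anxa5 in null lines at 3 h ran from -0.037 to 0.12. Between genotypes Anxa6 ran from -0.0032 to 0.18 under SB and from -0.014 to 0.16 at 3 h, Anxa11 from -0.15 to 0.060 under SB, Anxa7 from -0.056 to 0.016 at 3 h, and Anxa4 from -0.22 to 0.34 at 3 h and from -0.31 to 0.46 at 6 h. The causes of these changes were not tested. Depth limits Anxa10, at 0 to 10 reads a library.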
